A study of Mus musculus with 15 samples.

Results

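The 47 genes described here run the cell division cycle and copy the DNA in it. They were chosen by gene symbol, for their known function. All 47 are among the 35880 gene symbols of the expression table, and all 47 passed the filter on low values that 14652 genes passed. They fall into 7 roles, with 10 genes for licensing and the replication fork, 3 for deoxynucleotide supply, 8 G1 cyclins and cyclin-dependent kinases (CDKs), 4 for the S to M cyclins and CDK1, 7 for RB, the E2F factors, FOXM1 and MYBL2, 6 for mitotic kinases, the spindle checkpoint and CDC20, and 9 for kinetochore, spindle and chromosome structure. RNA was sequenced from 5 lines of LL2, the mouse Lewis lung carcinoma line in its luciferase-expressing form, with 3 biologic replicates per line and 15 libraries in all. LL2 WT is the unedited parental population. *KEAP1* KO #1, *KEAP1* KO #2 and *KEAP1* KO #3 are 3 lines edited in the gene of KEAP1, the protein that marks the transcription factor NRF2 for degradation, and *NRF2* KO is edited in the gene of NRF2. Each edited line grew from 1 cell that had taken up a plasmid with Cas9, a guide RNA and GFP, so that each is 1 clone, whereas LL2 WT is not. All lines were grown in DMEM with 10% serum, split at confluence and collected 24 h later, without further treatment. Whether the replicates were separate cultures grown apart in time is not stated beyond the word biologic, so p-values measure the spread between these libraries.

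As background, cells pass from G1 into S phase when D-type cyclins with CDK4 or CDK6, and then cyclin E with CDK2, release E2F factors from RB. E2F1 and E2F2 switch on genes for DNA synthesis, while E2F7 and E2F8 are E2F targets themselves that switch the same genes off again. Later, MYBL2 (B-MYB) and FOXM1 switch on the genes of G2 and mitosis. RNA levels of S phase genes and of mitotic genes therefore stand for different parts of the cycle, and a proliferating culture holds both.

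Values are estimated counts scaled to a common total per library (CPM), and the libraries sum to between 999412 and 999525 CPM. The number of reads in each library is not given in the sources used here, so no counting interval is given. The tests were made in limma over all 14652 genes, as log2(CPM + 0.1) and with 1 mean per line. A gene is said to pass at a Benjamini-Hochberg adjusted p under 0.05, and errors are the SD over 3 libraries or the standard error (SE) of a log2 fold change. *Keap1* averaged 23.0 ± 1.03 CPM in the parental line and 22.7 ± 1.78 CPM in *NRF2* KO, but 11.8 ± 0.889, 5.53 ± 1.57 and 5.58 ± 1.59 CPM in the *KEAP1* KO clones #1, #2 and #3. *Nfe2l2*, the gene of NRF2, averaged 186 ± 19.6 CPM for LL2 WT and between 96.4 and 123 CPM in the other lines, so that its RNA was not lost in *NRF2* KO. The epithelial keratins *Krt8* and *Krt18* and the mesenchymal gene *Vim* were expressed in all libraries, whereas *Epcam*, *Cdh1* and the lung genes *Nkx2-1* and *Sftpc* were near 0. Summed leukocyte markers ranged from 2.98 to 5.81 CPM in LL2 WT and *NRF2* KO and from 5.38 to 36.9 CPM in the *KEAP1* KO clones, where *Cd68* made up most of the sum and *Ptprc* and *Adgre1* were near 0. Mitochondrially encoded genes took 4.31% to 5.07% of the CPM in *KEAP1* KO #2 and #3 and 2.46% to 3.54% in the other lines. The part of these shares in the results was not tested.

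One library stands apart in these genes. The 47 members together took 0.651% and 0.684% of the CPM in LL2 WT replicates 1 and 2 but 0.417% in replicate 3, against 0.562% to 0.693% in the 12 other libraries. LL2 WT replicate 3 had the lowest value of all 15 libraries for 30 of the 47 members and the highest for 0. Since LL2 WT is the reference of the main comparisons, each call of a member against LL2 WT that this library changes is given below with and without it. Among the edited lines, replicate 3 was also the lowest in summed CPM within every line.

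**Figure D1:**
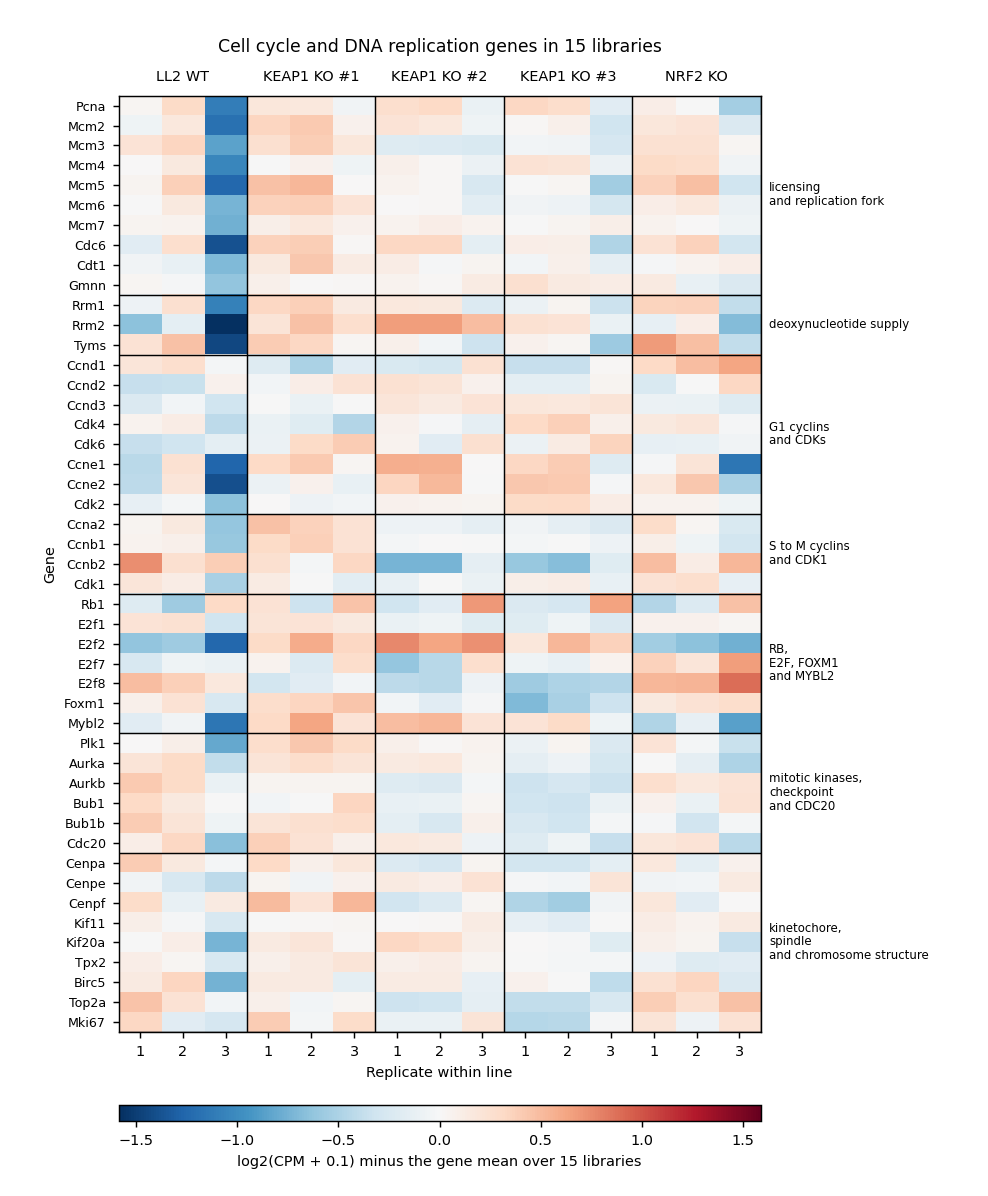
The 47 members (rows, by role) in the 15 libraries (columns, by line and replicate), coloured by log2(CPM + 0.1) minus the mean of the gene over all libraries, red for higher and blue for lower. The column of LL2 WT replicate 3 is blue in most rows and deepest in the licensing and deoxynucleotide genes, and the rows of *E2f2* and *E2f8* show opposite patterns between the *KEAP1* KO clones and the other 2 lines.

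The regulatory sequences of the members differ by role, and 6 promoters are shown because these genes carry the results that follow. Windows of 300 bases, from 250 before to 50 after a transcription start, were taken from RefSeq on GRCm38.p6 and were found for 36 of the 47 members, 3 of them with more than 1 window. They were searched on both strands for TTTCCCGC and TTTGGCGC, which are forms of the E2F site, for TTTGAA and TTTAAA, which are forms of the cell cycle genes homology region (CHR) bound in G2 and M phase genes, and for CCAAT. None of these words contains another, although their ends can share letters. Either E2F word was found in 25.0% of the members (9 of 36) and in 1.8% of the 27025 genes with a window. Either CHR word was found in 55.6% of the members (20 of 36) against 30.6%, and CCAAT in 75.0% (27 of 36) against 41.1%. By role, 6 of the 8 licensing and fork genes held an E2F word and 2 a CHR word. Of the 7 kinetochore, spindle and chromosome genes with a window, 0 held an E2F word and all 7 held a CHR word. A CHR word was also found in 3 of 3 genes of the S to M group and in 4 of 5 mitotic kinase and checkpoint genes, and an E2F word in none of these 8. These are counts of letters in short windows, not bound sites. In the stretches below, the 200 bases before the start are given 5′ to 3′ on the strand of the gene, with matches to the words in capitals.
*Mcm5* (chr8:75109309-75109508, plus strand): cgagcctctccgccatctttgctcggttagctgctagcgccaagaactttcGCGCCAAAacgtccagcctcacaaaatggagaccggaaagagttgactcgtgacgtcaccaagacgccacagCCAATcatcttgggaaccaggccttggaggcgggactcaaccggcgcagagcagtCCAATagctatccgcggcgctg
*Rrm2* (chr12:24708054-24708253, plus strand): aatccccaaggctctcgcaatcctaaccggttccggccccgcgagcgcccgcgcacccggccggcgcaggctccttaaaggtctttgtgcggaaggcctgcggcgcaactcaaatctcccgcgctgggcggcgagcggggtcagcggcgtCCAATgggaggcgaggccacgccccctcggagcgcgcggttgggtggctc
*E2f2* (chr4:136172074-136172273, plus strand, the first of 2 starts): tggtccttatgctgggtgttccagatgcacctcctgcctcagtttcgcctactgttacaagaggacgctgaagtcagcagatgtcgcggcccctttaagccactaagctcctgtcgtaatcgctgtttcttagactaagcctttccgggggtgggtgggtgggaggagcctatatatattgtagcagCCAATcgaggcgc
*E2f8* (chr7:48881597-48881796, minus strand): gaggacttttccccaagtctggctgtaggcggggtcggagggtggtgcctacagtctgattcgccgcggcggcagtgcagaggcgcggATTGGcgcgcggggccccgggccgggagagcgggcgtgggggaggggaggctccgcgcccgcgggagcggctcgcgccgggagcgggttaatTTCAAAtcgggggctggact
*Ccnb2* (chr9:70421555-70421754, minus strand): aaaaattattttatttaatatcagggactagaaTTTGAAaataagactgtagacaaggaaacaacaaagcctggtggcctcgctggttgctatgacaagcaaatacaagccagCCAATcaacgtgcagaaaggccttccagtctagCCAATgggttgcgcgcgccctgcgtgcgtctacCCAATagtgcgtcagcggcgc
*Top2a* (chr11:99024190-99024389, minus strand): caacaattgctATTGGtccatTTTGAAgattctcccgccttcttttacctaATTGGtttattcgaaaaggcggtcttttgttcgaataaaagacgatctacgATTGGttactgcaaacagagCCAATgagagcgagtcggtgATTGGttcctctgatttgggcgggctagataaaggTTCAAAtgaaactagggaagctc
The stretch of *Mcm5*, a subunit of the replicative helicase, holds an E2F word and 2 CCAAT matches. Those of *Rrm2* and of the first start of *E2f2* hold CCAAT once, and that of *E2f8* holds 1 CHR word and 1 CCAAT match. *Ccnb2* and *Top2a*, which act in mitosis, hold 1 and 2 CHR words with 3 and 5 CCAAT matches. The windows searched extend past these stretches. They add an E2F word 39 bases after the first start of *E2f2*, a CHR word at the start of *Rrm2* and further words in *Mcm5*, *Ccnb2* and *Top2a*. The window of the second *E2f2* start, not printed, holds a CHR word and CCAAT matches.

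Against LL2 WT, the number of members that passed depended on how replicate 3 was treated. With 1 mean per line and no other term, 6 of 47 were higher and 1 lower in *KEAP1* KO #1, where 15.9% of all tested genes were higher and 7.25% lower. In *KEAP1* KO #2, 5 were higher and 4 lower (all genes 17.3% and 14.6%), and in *KEAP1* KO #3, 4 were higher and 9 lower (16.6% and 14.8%). In *NRF2* KO, 0 of 47 passed in limma, where 0.13% of all genes were higher and 0.491% lower. An unadjusted p under 0.05 in limma was found there for 5 of 47 members and for 1641 of 14652 genes. In this fit the members' shares in the *KEAP1* KO clones were near or below those of all genes, apart from the 9 lower in *KEAP1* KO #3. An absolute log2 fold change over 1 together with passing was reached by 2, 3 and 1 members in the 3 clones, where 8.54%, 13.7% and 13.4% of all genes reached it, and by 0 in *NRF2* KO, where 0.464% did. With replicate 3 entered as a batch, 18 members were higher and 2 lower in *KEAP1* KO #1 (all genes 26.6% and 14.2%), 14 and 5 in #2 (25.5% and 22.6%), 11 and 10 in #3 (24.4% and 23%) and 0 in *NRF2* KO (1.32% and 1.73%). In *KEAP1* KO #1 and #2 the members' share higher then exceeded that of all genes, and their share lower was below it. Statements below that a single gene passed or did not pass are for the fit without this batch, unless it is named. The 4 comparisons share the LL2 WT libraries and are not independent.

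The median log2 fold change of the members was 0.30, 0.15 and 0.097 in *KEAP1* KO #1, #2 and #3 and 0.18 in *NRF2* KO, with 0.11, 0.029, 0.021 and 0.043 for all genes. Rescaling the libraries by the median ratio moved the median of all genes in *KEAP1* KO #1 to 0.012. Without LL2 WT replicate 3 the medians of the members were 0.067, −0.080, −0.14 and −0.036, so that the direction turned in 3 of the 4 lines. The members passing were then 5 higher and 4 lower in *KEAP1* KO #1, where 12.6% and 5.63% of all genes in the same fit were. They were 5 and 8 in *KEAP1* KO #2 (all genes 14.4% and 12.4%), 3 and 11 in *KEAP1* KO #3 (14.1% and 13%) and 0 in *NRF2* KO (0.0621% and 0.248%). In each *KEAP1* KO clone the members' share lower then exceeded that of all genes, and their share higher was below it. Of the 7, 9 and 13 members that passed with all libraries, 5, 8 and 11 also passed without LL2 WT replicate 3. In bulk RNA, fewer cells in a phase of the cycle and less of these RNAs per cell cannot be told apart.

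The E2F activator gene *E2f2* rose and the repressor gene *E2f8* fell in all 3 *KEAP1* KO clones. *E2f2* (chromosome 4, 136172394 to 136196057, GRCm38) had 5.77, 6.04 and 3.72 CPM for LL2 WT replicates 1 to 3 and 6.09, 5.69 and 5.23 CPM for *NRF2* KO. Its values were 11.1, 13.5 and 11.3 CPM for *KEAP1* KO #1, 15.3, 13.96 and 14.9 CPM for *KEAP1* KO #2 and 10.21, 13 and 11.6 CPM for *KEAP1* KO #3. All 9 libraries of the clones lay above all 6 libraries of the other 2 lines. Its rise over the parental line was 1.22 on the log2 scale for #1 (SE 0.17, limma adjusted p = 0.000339), 1.52 for #2 (adjusted p = 3.15e-05) and 1.17 for #3 (adjusted p = 0.000244). Without LL2 WT replicate 3 it was 1.001, 1.302 and 0.96, and all 3 still passed. In *NRF2* KO its interval at 95% ran from −0.22 to 0.53.

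*E2f8*, a repressor (chromosome 7, 48866429 to 48881596), had 72.2, 67.1 and 57.7 CPM for LL2 WT and 73.7, 74.8 and 95.2 CPM for *NRF2* KO. It had 41.9, 45.2 and 49.8 CPM for *KEAP1* KO #1, 38.5, 37.7 and 48.4 CPM for *KEAP1* KO #2 and 34.6, 36.4 and 37.2 CPM for *KEAP1* KO #3. Every library of the clones was below every library of LL2 WT and *NRF2* KO. The log2 fold change was −0.52 for #1 (SE 0.13, limma adjusted p = 0.0117), −0.66 for #2 (adjusted p = 0.00192) and −0.86 for #3 (adjusted p = 0.000286), and without LL2 WT replicate 3 it was −0.61, −0.75 and −0.95. In *NRF2* KO it was 0.30 and did not pass (adjusted p = 0.406). For #1 the gene no longer passed without LL2 WT replicate 1 (−0.45).

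Among the other regulators, *Mybl2*, which with the MuvB core activates G2 and M genes (chromosome 2, 163054687 to 163084688), had 53.1, 58.1 and 27.2 CPM for LL2 WT and 43.3, 55.2 and 33.2 CPM for *NRF2* KO. It had 75.4, 93.4 and 69.8 CPM for *KEAP1* KO #1, 84.5, 87.2 and 70.1 CPM for *KEAP1* KO #2 and 69.8, 74.4 and 57.3 CPM for *KEAP1* KO #3. It passed in *KEAP1* KO #1 (0.85, limma adjusted p = 0.0305) and #2 (0.87, adjusted p = 0.0202) but not in #3 (0.61, adjusted p = 0.0885). Both calls rest on LL2 WT replicate 3, since without it the log2 fold changes were 0.51 (adjusted p = 0.1) and 0.53 (adjusted p = 0.0671). The first was also lost without *KEAP1* KO #1 replicate 1 or 2 and the second without *KEAP1* KO #2 replicate 1 or 2, at 0.51 to 0.88 and 0.53 to 0.83. *Foxm1*, the forkhead activator of mitotic genes, averaged 55.3 ± 9.10 CPM for LL2 WT, 69.1 ± 3.91 for clone #1, 51.1 ± 2.91 for #2, 38.0 ± 4.92 for #3 and 62.9 ± 2.77 for *NRF2* KO, and fell by 0.53 on the log2 scale in *KEAP1* KO #3 (limma adjusted p = 0.00533). *E2f7*, the other repressor, had 10.4, 11.9 and 11.5 CPM for LL2 WT and 16.1, 14.2 and 19.7 CPM for *NRF2* KO, without overlap. It had 12.95, 10.7 and 15.1 CPM for *KEAP1* KO #1, 8.096, 9.17 and 15 CPM for #2 and 11.8, 11.4 and 12.9 CPM for #3. It was among the 3 members with the largest difference in *NRF2* KO, at 0.55 (95% interval 0.10 to 0.997), and passed against LL2 WT in no line (adjusted p = 0.336 in *NRF2* KO). *Rb1* and *E2f1* also passed in none, but without LL2 WT replicate 3 *E2f1* passed as lower in *KEAP1* KO #2 (−0.35) and #3 (−0.39).

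Of the 3 genes that supply deoxynucleotides, *Rrm2*, the regulated subunit of ribonucleotide reductase (chromosome 12, 24708241 to 24714146), rose in all 3 clones. It had 255, 361 and 134 CPM for LL2 WT, 463, 556 and 482 CPM for *KEAP1* KO #1 and 638, 638 and 564 CPM for *KEAP1* KO #2. It had 474, 468 and 372 CPM for *KEAP1* KO #3 and 368, 434 and 248 CPM for *NRF2* KO. Each library of the clones was above all LL2 WT libraries, although LL2 WT replicate 2 and *KEAP1* KO #3 replicate 3 are close. The log2 fold change was 1.11 for #1 (SE 0.29, limma adjusted p = 0.0142), 1.41 for #2 (adjusted p = 0.00251) and 0.92 for #3 (adjusted p = 0.0274). It was 0.56 in *NRF2* KO, which did not pass (adjusted p = 0.503). Without LL2 WT replicate 3 it was 0.72 and 1.01 in the first 2 clones, which passed, and 0.52 in *KEAP1* KO #3, which did not (adjusted p = 0.0902). Clone #1 also did not pass without *KEAP1* KO #1 replicate 2 (1.03), nor clone #3 without LL2 WT replicate 3 or *KEAP1* KO #3 replicate 1 or 2 (from 0.52 to 0.86). The interval at 95% in *NRF2* KO ran from −0.056 to 1.18. *Rrm1*, the partner subunit, and *Tyms*, thymidylate synthase, passed in 0 lines when no batch was entered. With replicate 3 entered as a batch, 2, 1 and 1 of these 3 genes were higher in *KEAP1* KO #1, #2 and #3 and 0 lower. In that fit 26.6%, 25.5% and 24.4% of all genes were higher. *Tyms* averaged 97.6 ± 53.9 CPM for LL2 WT and between 91.3 and 125 CPM in the edited lines.

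**Figure D2:**
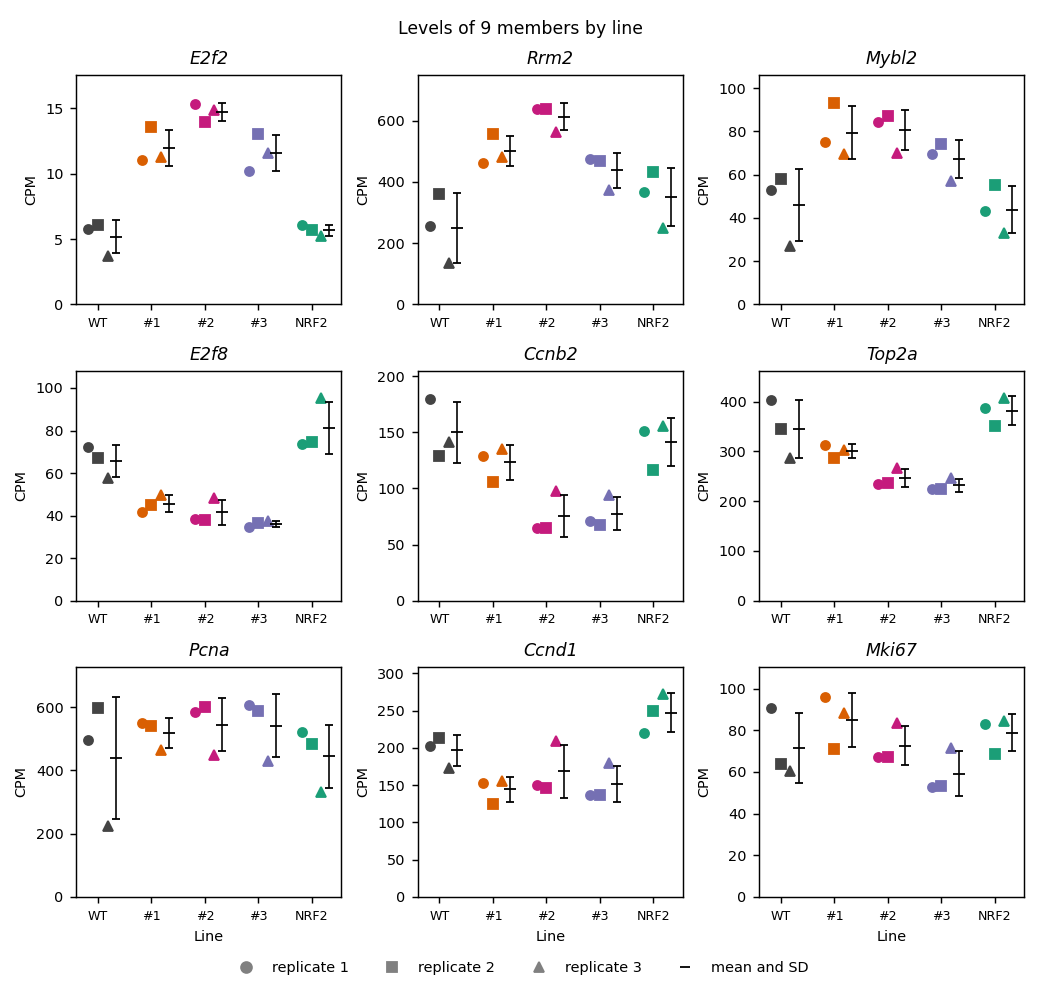
CPM of 9 members (panels, each axis from 0) by line, with 1 symbol per library and the mean with its SD beside it. *E2f2* is higher and *E2f8* lower in all 9 *KEAP1* KO libraries than in the other 6, and for *Pcna* the libraries of the 5 lines overlap, with LL2 WT replicate 3 the lowest at 226 CPM.

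The 10 genes that license origins and move the fork gave 1 pass with 1 mean per line and no other term. *Pcna*, the sliding clamp and a usual proliferation marker, had 496, 598 and 226 CPM for LL2 WT, 549.8, 542 and 465 CPM for *KEAP1* KO #1 and 584, 602 and 448 CPM for *KEAP1* KO #2. It had 607, 589 and 428 CPM for *KEAP1* KO #3 and 522, 482 and 333 CPM for *NRF2* KO. The lines overlap, and LL2 WT replicate 3 is far below the other libraries of its line. *Cdt1*, which loads the MCM helicase, was higher in *KEAP1* KO #1 (97.5 ± 11.2 against 68.5 ± 15.7 CPM, log2 fold change 0.53, limma adjusted p = 0.0194) and, without LL2 WT replicate 3, still passed at 0.33. That call was lost without *KEAP1* KO #1 replicate 2 (0.44). The medians over the 10 genes were 0.44, 0.29, 0.28 and 0.30 on the log2 scale in *KEAP1* KO #1, #2, #3 and *NRF2* KO, against a reference that includes the low library. Without it, *Mcm3*, a helicase subunit, passed as lower in *KEAP1* KO #2 (−0.50) and #3 (−0.40). It had 205, 222 and 97.4 CPM for LL2 WT, 152, 151 and 149 CPM for *KEAP1* KO #2 and 170.2, 169 and 146 CPM for *KEAP1* KO #3. *Mcm2*, *Mcm4*, *Mcm5*, *Mcm6*, *Mcm7*, *Cdc6* and the licensing inhibitor *Gmnn* passed against LL2 WT in no line, with or without this library, when no batch was entered. With replicate 3 entered as a batch, 5, 3 and 1 of the 10 genes were higher in *KEAP1* KO #1, #2 and #3 and 0 lower. In the same fit 26.6%, 25.5% and 24.4% of all genes were higher.

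The D-type cyclins, which start the G1 step, each had their own pattern. *Ccnd1* had 203, 214 and 173 CPM for LL2 WT and 221, 249 and 272 CPM for *NRF2* KO. It had 153, 125 and 156 CPM for *KEAP1* KO #1, 150.2, 146 and 209.7 CPM for *KEAP1* KO #2 and 137, 137 and 179.6 CPM for *KEAP1* KO #3. The log2 fold changes in the 3 clones of −0.44, −0.24 and −0.38 did not pass (limma adjusted p = 0.0588, 0.279 and 0.0828), and the first passed without LL2 WT replicate 3 (−0.53, adjusted p = 0.0496). *Ccnd3* rose in *KEAP1* KO #2 (0.38, adjusted p = 0.00314) and #3 (0.38, adjusted p = 0.00278). Its values were 56.1, 63.4 and 52.6 CPM for LL2 WT, 65.4, 60.7 and 65.0 CPM for *KEAP1* KO #1, 74.5, 72.2 and 76.0 CPM for *KEAP1* KO #2, 74.2, 73.7 and 75.6 CPM for *KEAP1* KO #3 and 61.6, 60.7 and 56.7 CPM for *NRF2* KO, and libraries of *KEAP1* KO #2 and #3 were above all others. *Ccnd2* had 95.4, 96.4 and 129 CPM for LL2 WT, 119.8, 132 and 145 CPM for *KEAP1* KO #1, 146, 142 and 129 CPM for *KEAP1* KO #2, 111, 110.5 and 127 CPM for *KEAP1* KO #3 and 104, 122 and 155 CPM for *NRF2* KO. It passed in no comparison with LL2 WT, and without LL2 WT replicate 3, its highest value in that line, it passed in *KEAP1* KO #1 (0.46) and #2 (0.53).

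Of the G1 kinases, *Cdk6* was higher in *KEAP1* KO #1 (46.4 ± 7.94 against 32.9 ± 2.64 CPM for LL2 WT, log2 fold change 0.48, limma adjusted p = 0.0334) and *Cdk2* in *KEAP1* KO #3 (42.8 ± 3.19 against 30.2 ± 6.52 CPM, 0.52, adjusted p = 0.00914). The call of *Cdk6* was lost without LL2 WT replicate 1 or 2 or *KEAP1* KO #1 replicate 2 or 3 (from 0.39 to 0.46). *Cdk4* and the E-type cyclins *Ccne1* and *Ccne2* did not pass with 1 mean per line and no other term. With replicate 3 entered as a batch, 3, 6 and 6 of the 8 G1 genes were higher in *KEAP1* KO #1, #2 and #3. In the same order, 1, 0 and 1 were lower. In that fit 26.6%, 25.5% and 24.4% of all genes were higher and 14.2%, 22.6% and 23% lower. *Ccne2* had 32.5, 49.6 and 16.4 CPM for LL2 WT and 48.7, 58.4 and 30.3 CPM for *NRF2* KO, the largest log2 fold change of the members in that line at 0.57 (95% interval −0.15 to 1.28, adjusted p = 0.575). It had 40.8, 45.4 and 40.1 CPM for *KEAP1* KO #1, 55.1, 62.0 and 43.0 CPM for #2 and 58.3, 57.9 and 42.9 CPM for #3. Within LL2 WT and *NRF2* KO its libraries spread by more than these 2 lines differ in their means, 32.8 ± 16.6 and 45.8 ± 14.3 CPM.

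Both B-type cyclins drive mitosis with CDK1, but they did not move together. *Ccnb2* (chromosome 9, 70407692 to 70421547) had 180.0, 129 and 141 CPM for LL2 WT, 129, 105 and 135 CPM for *KEAP1* KO #1 and 151, 116 and 156 CPM for *NRF2* KO. It had 64.6, 64.6 and 97.4 CPM for *KEAP1* KO #2 and 71.1, 67.5 and 94.2 CPM for *KEAP1* KO #3, all below the other 9 libraries. The log2 fold change was −1.001 (SE 0.19, limma adjusted p = 0.00181) in *KEAP1* KO #2 and −0.95 (adjusted p = 0.00247) in #3, and −0.28 in #1, which did not pass (adjusted p = 0.331). Without LL2 WT replicate 3 it was −1.04 and −0.99. *Ccnb1* had 158, 160.4 and 99.8 CPM for LL2 WT, 187, 197 and 179 CPM for *KEAP1* KO #1, 148, 152 and 151 CPM for #2, 148, 151 and 143 CPM for #3 and 162, 144 and 124 CPM for *NRF2* KO. It passed as higher in *KEAP1* KO #1 (0.46, adjusted p = 0.0431), a call that rests on the low library (0.24 without it, adjusted p = 0.106) and that was also lost without each of the *KEAP1* KO #1 libraries (from 0.24 to 0.50 over these 4). *Cdk1* and *Ccna2*, the S and G2 phase cyclin, passed in 0 lines.

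The mitotic kinases and structural genes that passed were mostly lower, with 6 of 15 lower in *KEAP1* KO #3, 2 in #2 and 0 in #1, where 14.8%, 14.6% and 7.25% of all genes were lower. Leaving out LL2 WT replicate 3 made these 6, 4 and 2 (all genes 13%, 12.4% and 5.63%). *Top2a*, topoisomerase II alpha (chromosome 11, 98992943 to 99024189), had 404, 345 and 287 CPM for LL2 WT, 313, 286 and 302 CPM for *KEAP1* KO #1 and 387, 350.4 and 407 CPM for *NRF2* KO. It had 235, 237 and 267 CPM for *KEAP1* KO #2 and 224, 224 and 247 CPM for *KEAP1* KO #3, below all other libraries. The log2 fold change was −0.48 (limma adjusted p = 0.00621) and −0.56 (adjusted p = 0.00218) in these, and −0.19 in *KEAP1* KO #1, which did not pass with all libraries but did without LL2 WT replicate 3 (−0.32, adjusted p = 0.04). *Aurkb*, the kinase of the chromosomal passenger complex, fell by 0.36 in *KEAP1* KO #2 and by 0.52 in #3 on the log2 scale, from 101 ± 18.2 CPM to 77.6 ± 5.78 and 69.6 ± 1.88 CPM. It also passed in clone #1 without LL2 WT replicate 3 (−0.32, adjusted p = 0.0125). In *KEAP1* KO #3 the checkpoint kinases *Bub1* and *Bub1b*, the centromeric histone *Cenpa* and the kinetochore protein *Cenpf* also fell, with log2 fold changes from −0.47 to −0.38 and adjusted p from 0.0213 to 0.0429. *Cenpf* did not pass without LL2 WT replicate 3 (−0.45, adjusted p = 0.0873), whereas *Bub1b* (−0.41, adjusted p = 0.0283) and *Cenpa* (−0.43, adjusted p = 0.0232) then passed as lower in *KEAP1* KO #2 too. The calls of *Bub1* and *Cenpa* were lost without LL2 WT replicate 1 or *KEAP1* KO #3 replicate 1 or 2, and those of *Bub1b* and *Cenpf* without 4 of the 6 libraries each, at log2 fold changes between −0.45 and −0.27. The call of *Aurkb* in #2 was lost without LL2 WT replicate 1 or 2 or *KEAP1* KO #2 replicate 1 or 2 (from −0.34 to −0.26). *Cenpe*, a kinetochore motor, was instead higher in *KEAP1* KO #2 (0.40, adjusted p = 0.0124).

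*Mki67*, the gene of the proliferation antigen Ki-67, passed in no comparison with LL2 WT. It had 90.7, 63.6 and 60.3 CPM for LL2 WT, 96.0, 70.9 and 88.2 CPM for *KEAP1* KO #1 and 67.4, 67.1 and 83.5 CPM for *KEAP1* KO #2. It had 52.9, 53.1 and 71.6 CPM for *KEAP1* KO #3 and 83.1, 68.6 and 84.6 CPM for *NRF2* KO. Every line overlaps LL2 WT, and the intervals at 95% for the log2 fold change ran from −0.12 to 0.65 in *KEAP1* KO #1, from −0.35 to 0.43 in #2, from −0.65 to 0.12 in #3 and from −0.23 to 0.54 in *NRF2* KO. *Plk1*, *Aurka*, *Cdc20*, *Kif11*, *Kif20a*, *Tpx2* and *Birc5* likewise did not pass, apart from *Aurka* in *KEAP1* KO #3 without LL2 WT replicate 3 (−0.41, adjusted p = 0.0212).

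**Figure D3:**
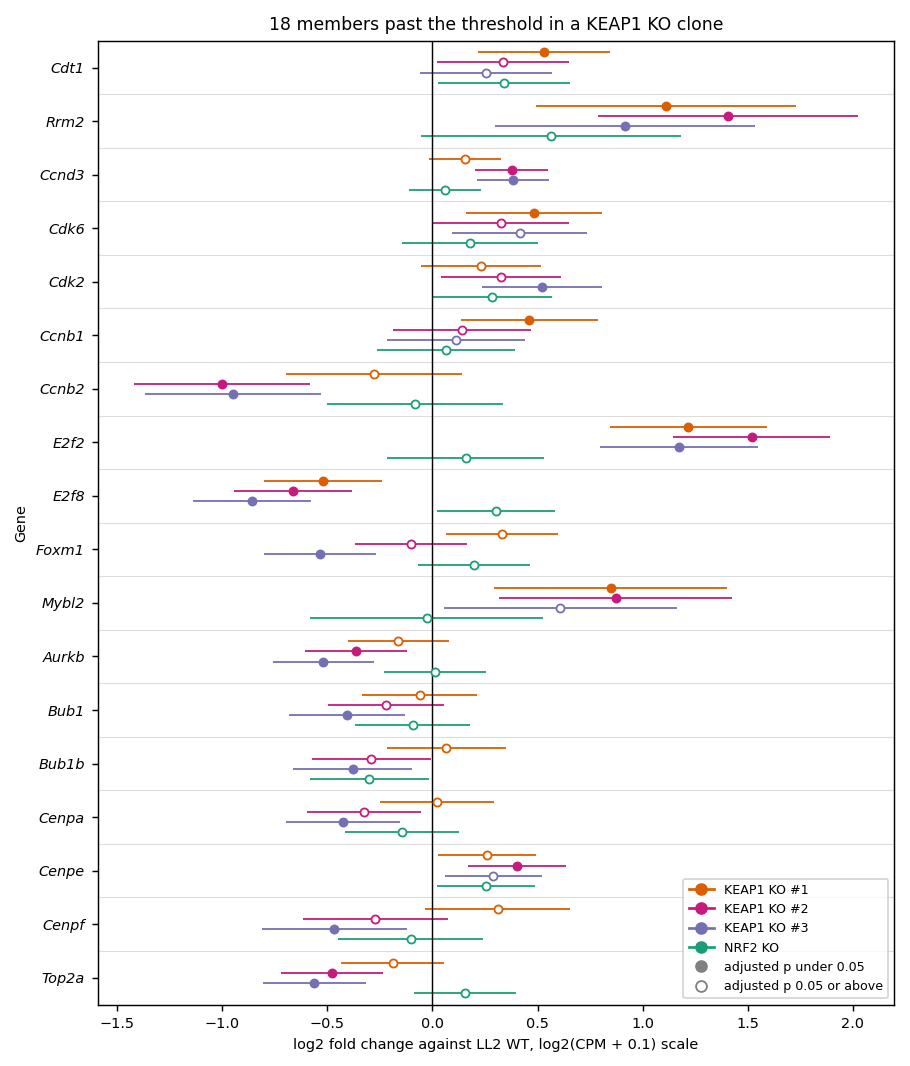
Log2 fold change against LL2 WT (x axis, log2(CPM + 0.1) scale) with its 95% interval for the 18 members that passed in at least 1 line, by line, with filled points for an adjusted p under 0.05. *E2f2* lies to the right and *E2f8* to the left of 0 in all 3 *KEAP1* KO clones, and no point of *NRF2* KO is filled.

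The mean of the 3 *KEAP1* KO clones was compared with *NRF2* KO, a comparison of edited lines that does not use the LL2 WT libraries except for the shared spread. Since *NRF2* KO is 1 clone, its genotype and its clone cannot be told apart. The p-values measure the spread between libraries, not between clones. In it, 11 of 47 members passed, 4 higher and 7 lower in the clones, against 25.9% of all genes (1997 higher and 1803 lower of 14652). The largest differences were *E2f2* at 1.15 (SE 0.14, limma adjusted p = 5.74e-05) and *E2f8* at −0.98 (SE 0.11, adjusted p = 1.67e-05). *Mybl2* (0.80), *Ccnd3* (0.24) and *Tpx2*, a spindle assembly factor (0.22), were also higher, with adjusted p from 0.0124 to 0.0375. *Ccnd1* (−0.69, adjusted p = 0.00158) was lower, with all 9 libraries of the clones below the 3 of *NRF2* KO. *Ccnb2* (−0.66), *Top2a* (−0.56), *E2f7* (−0.50), *Aurkb* (−0.36) and *Foxm1* (−0.30) were lower too in the mean of the clones. For *Foxm1* clone #1 went the other way, at 69.1 ± 3.91 CPM against 62.9 ± 2.77 CPM in *NRF2* KO. Clones #2 (51.1 ± 2.91 CPM) and #3 (38.0 ± 4.92 CPM) were lower. For *Ccnd3*, *Ccnb2*, *E2f7* and *Foxm1* the libraries of the clones and of *NRF2* KO overlap. Leaving out a single library ended the calls of *E2f7*, *Foxm1* and *Tpx2* in 8, 9 and 9 of 13 cases (from −0.51 to −0.37, −0.33 to −0.27 and 0.19 to 0.26), among them all cases of a left-out *NRF2* KO library except replicate 2 for *E2f7*. The calls of *Ccnd3* and *Mybl2* were lost without *NRF2* KO replicate 3 (0.21 and 0.62) and that of *Aurkb* without replicate 1 (−0.33). Those of *Ccnd1*, *Ccnb2*, *E2f2*, *E2f8* and *Top2a* held in all 13. Without LL2 WT replicate 3, these 11 passed together with *Rrm2* (0.58) and *Aurka* (0.27), where 30.1% of all genes passed.

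The clones also differed among themselves. Between *KEAP1* KO #1 and #2, 3 of 47 members were higher in #1 and 0 lower, against 7.15% and 3.94% of all genes. They were *Ccnb2* (0.72, limma adjusted p = 0.0297), *Cenpf* (0.58, 0.0327) and *Foxm1* (0.43, 0.0391). Between *KEAP1* KO #1 and #3, 6 members were higher and 1 lower in #1, against 7.7% and 4.55% of all genes. *Foxm1* (0.87, adjusted p = 0.000736), *Cenpf* (0.78), *Ccnb2* (0.67), *Bub1b* (0.44), *Cenpa* (0.44) and *Top2a* (0.37) were higher in #1, and *Cdk4* (−0.51, 522 ± 66.7 against 744 ± 76.5 CPM) was higher in #3. These are genes of G2 and mitosis apart from *Cdk4*. *KEAP1* KO #2 and #3 gave 0 members in limma, where 0.764% of all genes passed. An unadjusted p under 0.05 in limma was found for 1 of 47 members and for 1204 of 14652 genes. The spread is shared over the 5 lines, and without LL2 WT replicate 3 the counts were 9, 17 and 0, where 13.9%, 16% and 0.842% of all genes passed. *Foxm1* and *Cenpf* between #1 and #3 passed whichever library was left out, at log2 fold changes of 0.77 to 0.96 and 0.68 to 0.93 over all settings tried, whereas the other 8 calls were each lost without at least 4 of the libraries of the 2 clones compared.

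Replicate 3 was compared with replicates 1 and 2 over all lines. The members' share of the CPM was lowest in replicate 3 within every line. In limma, 23 of 47 members were lower and 5 higher in replicate 3, against 15.1% and 30.6% of all genes. The median of the members was −0.18 on the log2 scale, and that of all genes 0.13. What the replicate number stands for, such as a day or a batch, is not stated in the sources used here. Lower were 7 of 10 licensing and fork genes, all 3 deoxynucleotide genes, 4 of 8 in the G1 group, 3 of 4 in the S to M group, 1 of 7 regulators, 3 of 6 mitotic kinase and checkpoint genes and 2 of 9 structural genes. *Tyms* in replicates 1, 2 and 3 had 117, 139 and 36.7 CPM for LL2 WT, 133, 126 and 103 CPM for *KEAP1* KO #1, 106, 97.6 and 80.2 CPM for #2, 105, 102 and 66.9 CPM for #3 and 160.3, 139 and 76.2 CPM for *NRF2* KO. *Mcm5*, whose promoter with an E2F word is shown above, had 195, 244 and 79.7 CPM for LL2 WT, 261, 272 and 189.9 CPM for *KEAP1* KO #1, 197, 190.3 and 158 CPM for #2, 188, 192 and 129 CPM for #3 and 244, 262 and 152 CPM for *NRF2* KO. Replicate 3 was the lowest library of its line for both genes in all 5 lines. *Tyms* (−0.81, SE 0.16, adjusted p = 0.00166), *Ccne1* (−0.77), *Mcm5* (−0.71), *Cdc6* (−0.68), *Ccne2* (−0.62) and *Pcna* (−0.60) were the lowest, all genes of the G1 to S transition or of DNA synthesis. *Rb1*, the brake on E2F, was higher at 0.77 (SE 0.10, adjusted p = 0.00023), with 10.08, 11.03, 13.1, 12.6 and 11.1 CPM in replicate 3 of the 5 lines and 5.41 to 9.46 CPM in the 10 other libraries. The other 4 that were higher were *E2f7* (0.35), *Ccnb2* (0.27), *Cdk6* (0.24) and *Ccnd2* (0.23). Of these, *Ccnb2* lost its call in 11 of 15 cases of a single left-out library (from 0.19 to 0.29), *Cdk6* without *KEAP1* KO #2 replicate 3 or *KEAP1* KO #3 replicate 3 (0.22 each) and *Ccnd2* without LL2 WT replicate 3, *KEAP1* KO #3 replicate 3 or *NRF2* KO replicate 3 (from 0.17 to 0.23). Among the lower members the calls of *Cdk2* (−0.18), *Ccnb1* (−0.23) and *Plk1* (−0.31) were lost in 12, 5 and 2 of the 15 cases of a left-out library, LL2 WT replicate 3 among them (between −0.28 and −0.084). An E2F word was found in 5 of the 19 lower members with a window and in 4 of the 17 others, and a CHR word in 10 of 19 and 10 of 17.

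The size of this difference is given by line as a description, with no test, since each line has 1 library of replicate 3. Replicate 3 minus the mean of replicates 1 and 2 had a median over the members of −0.63 in LL2 WT, −0.049 in *KEAP1* KO #1, −0.027 in #2, −0.098 in #3 and −0.17 in *NRF2* KO. For licensing and fork genes the medians were −1.13, −0.16, −0.16, −0.26 and −0.29 in the same order, and for structural genes −0.32, 0.028, 0.12, 0.14 and 0.054. The median of the licensing genes was therefore below 0 in every line, and that of the structural genes in LL2 WT alone. For *Tyms* the differences were −1.79, −0.33, −0.34, −0.63 and −0.97, and for *Pcna* −1.27, −0.23, −0.40, −0.48 and −0.59.

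Without the whole LL2 WT line, 20 members were still lower (42.6%) and 12 higher in replicate 3, where 1837 (13.0%) and 4454 of 14151 genes were. The lower genes then included *Ccne1* (−0.67), *Tyms* (−0.57), *Mcm5* (−0.52), *Cdc6* (−0.50) and *Pcna* (−0.43). The higher ones included *Rb1* (0.78), *Ccnb2* (0.37), *Ccnd1* (0.32), *Mki67* (0.25), *Bub1* (0.25) and *E2f8* (0.24). The genes named here were chosen after their values had been seen.

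**Figure D4:**
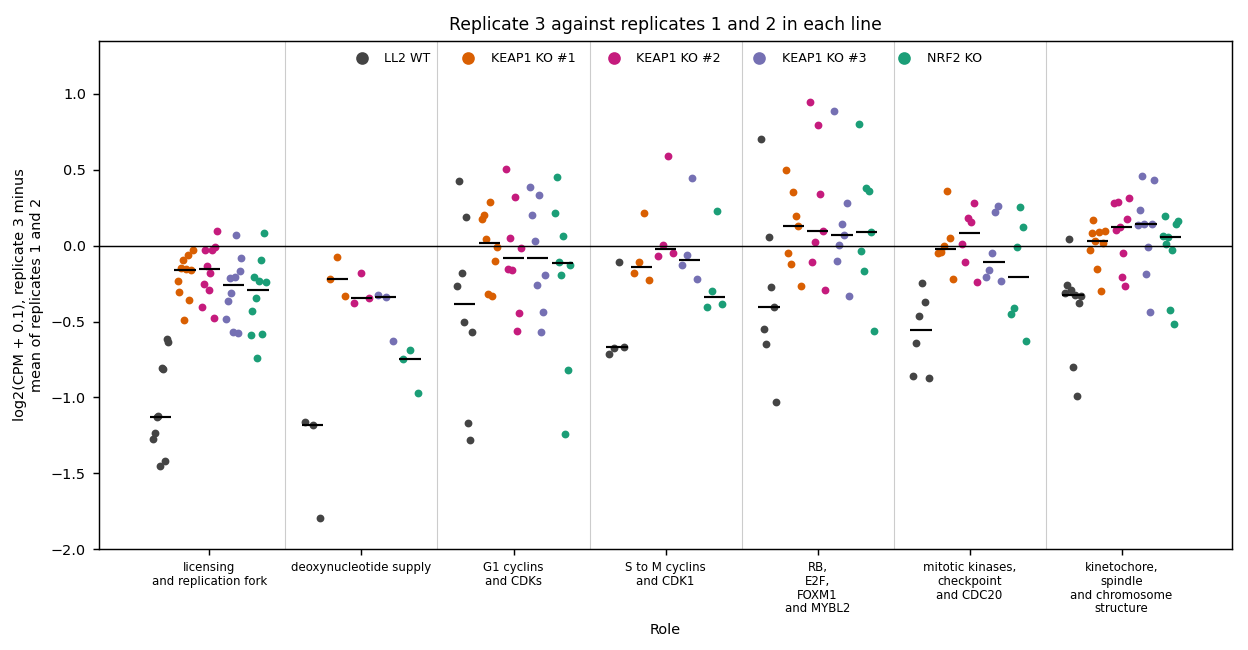
Replicate 3 minus the mean of replicates 1 and 2 on the log2(CPM + 0.1) scale (y axis) for each member (points), by role (x axis) and line (colour), with a black bar at the median. The LL2 WT median lies lowest in every role, at a value of −1.13 for licensing and fork genes, while the medians of the other lines lie between −0.29 and −0.16 there.

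Of the inhibitors of CDKs, which hold cells in G1, 4 of 7 were tested, and 1, 3 and 4 of these passed in *KEAP1* KO #1, #2 and #3 and 0 in *NRF2* KO. In *NRF2* KO, 1 of the 4 had an unadjusted p under 0.05 in limma, as did 1641 of 14652 genes. Of all genes, 23.2%, 31.9%, 31.4% and 0.621% passed in these 4 comparisons, and without LL2 WT replicate 3 the inhibitors passing were 0, 3, 3 and 0. *Cdkn2c* (p18) had 34.0, 32.3 and 43.3 CPM for LL2 WT, 23.0, 22.7 and 25.3 CPM for *KEAP1* KO #1 and 31.1, 22.7 and 29.6 CPM for *NRF2* KO. It had 9.28, 8.43 and 11.9 CPM for *KEAP1* KO #2 and 11.03, 10.7 and 12.26 CPM for *KEAP1* KO #3. The log2 fold change was −0.61 (limma adjusted p = 0.0142), −1.88 (adjusted p = 2.39e-06) and −1.67 (adjusted p = 6.49e-06) in the 3 clones, and the first did not pass without LL2 WT replicate 3 or *KEAP1* KO #1 replicate 2 (from −0.59 to −0.49). *Cdkn1b* (p27) fell in *KEAP1* KO #2 (−1.23, adjusted p = 0.00352) and #3 (−1.27, adjusted p = 0.00278), from 62.1 ± 16.9 CPM to 26.0 ± 3.95 and 26.0 ± 8.51 CPM. *Cdkn1a* (p21), a p53 target, rose in the same 2 clones (0.96, adjusted p = 0.0045, and 1.199, adjusted p = 0.00103). It had 140.3, 156 and 237 CPM for LL2 WT, 198, 139 and 209 CPM for *KEAP1* KO #1, 325, 305 and 390.1 CPM for *KEAP1* KO #2, 363, 379.5 and 458 CPM for *KEAP1* KO #3 and 134, 195 and 192 CPM for *NRF2* KO. *Cdkn2d* (p19) was lower in *KEAP1* KO #3 (−0.90, adjusted p = 0.0385), a call lost without LL2 WT replicate 1 or 3 or *KEAP1* KO #3 replicate 1 or 2 (from −0.82 to −0.77). *Cdkn1c*, *Cdkn2a* and *Cdkn2b* did not pass the filter, and *Cdkn2a* and *Cdkn2b* are listed at 0 in all 15 libraries. The 4 tested inhibitors were all higher in replicate 3 than in replicates 1 and 2, by 0.26 (*Cdkn2c*) to 0.59 (*Cdkn2d*), where 30.6% of all genes were higher.

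The rest of the machinery was read in 7 further lists in *KEAP1* KO #1, #2 and #3, where 15.9%, 17.3% and 16.6% of all genes were higher and 7.25%, 14.6% and 14.8% lower. Of 45 replisome and origin factors 5, 2 and 0 were higher and 0, 2 and 3 lower, and of 9 other deoxynucleotide enzymes 0 passed. Of 13 tested cyclins, CDKs and CDK phosphatases outside the members 3, 2 and 2 were higher and 1, 0 and 2 lower. Of 13 other pocket, E2F and DREAM proteins 4, 2 and 2 were higher and 0, 2 and 2 lower, and of 19 anaphase-promoting complex and SCF partners 4, 0 and 0 were higher and 1, 2 and 5 lower. Of 21 G1/S phase markers 5, 3 and 1 were higher and 0, 1 and 1 lower, and of 36 G2/M phase markers 9, 6 and 4 were higher and 0, 1 and 6 lower. With all libraries, the share higher in *KEAP1* KO #1 was above that of all genes in 5 of the 7 lists, at 21.1% to 30.8%, and the share of complex partners lower in #3 was 26.3%. With LL2 WT replicate 3 left out, 12.6%, 14.4% and 14.1% of all genes were higher and 5.63%, 12.4% and 13% lower. Of the 45 replisome and origin factors 4, 1 and 0 were then higher and 3, 10 and 11 lower. The G1/S markers were then 2, 2 and 0 higher and 1, 4 and 7 lower, and the G2/M markers 5, 5 and 2 higher and 1, 5 and 12 lower. In *KEAP1* KO #1, 2 of the 13 cyclins, CDKs and phosphatases, 3 of the 13 pocket, E2F and DREAM proteins and 2 of the 19 complex partners were then higher. The shares higher of the G1/S markers and of the complex partners were thus below that of all genes in this clone. In *NRF2* KO, 0 genes of these lists passed in limma. An unadjusted p under 0.05 in limma was found for 1 to 9 per list and for 1641 of 14652 genes. The counts include 9 of 36 G2/M markers and 1 of 19 complex partners.

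In *KEAP1* KO #1, 1 of 45 replisome and origin factors and 1 of 13 pocket, E2F and DREAM proteins passed with an absolute log2 fold change over 1. In #2 and in #3, 1 of these 13 proteins and 1 of 36 G2/M phase markers did. The other lists gave 0 in the 3 clones. Of all genes, 8.54%, 13.7% and 13.4% did in #1, #2 and #3. *E2f6*, a repressor of the E2F family, averaged 52.4 ± 3.00 CPM for LL2 WT and 107 ± 3.34 CPM for *KEAP1* KO #1 (1.03, limma adjusted p = 9.47e-07). *Gins3*, a helicase cofactor, was higher in the same clone (1.04, adjusted p = 0.0496) but not without LL2 WT replicate 1 or 3 or *KEAP1* KO #1 replicate 1, 2 or 3 (from 0.57 to 1.15). *Tfdp2*, a dimerization partner of E2F proteins, was lower in *KEAP1* KO #2 (−1.08) and #3 (−1.26), and so was *Pimreg*, a mitotic gene (−1.01 and −1.25). In replicate 3, *Nme1*, a nucleoside diphosphate kinase, was lower (−1.104, adjusted p = 0.00052) and *Ccng2*, a cyclin of resting cells, higher (1.41, adjusted p = 0.000228). Replicate 3 also had 15 of 21 G1/S phase markers lower and 0 higher, and 8 of 36 G2/M phase markers lower and 6 higher. Of all genes, 15.1% were lower and 30.6% higher in it.

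Some members share sequence with other annotated genes, which the pseudo-alignment could split. In GENCODE vM21 transcripts, 14 of 47 members had more than 10% of their 31-base stretches in another gene. Among these were *Mcm7* (33.4%), *Ccnb1* (27.8%), *Cdc20* (26.7%), *Pcna* (23.3%), *Mybl2* (21.1%) and *Rrm2* (12.8%), mostly with pseudogenes or overlapping genes. The others were *Kif20a* (26.7%), *Ccnd1* (22.3%), *Cdk4* (19.5%), *Plk1* (18.7%), *Ccne2* (15.6%), *Rb1* (13.2%), *Tyms* (11.4%) and *Ccna2*. The levels of all 14 are less certain. *E2f8* shared 9.57%.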

How the data were processed

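RNA from 15 LL2 cultures (5 lines with 3 replicates) was sequenced as paired-end reads from mRNA libraries, and the authors quantified it by pseudo-alignment with kallisto on mouse transcripts. The study's methods name GRCm38, whereas the submitters' processing notes name GRCm39, kallisto and bcl2fastq 1.9.0, which writes read files. The deposited values are CPM per gene symbol, scaled to about the same total in each library, so a change in a few abundant genes shifts the others, and the depth of each library is not given in the sources used here. Entries without a symbol took 0.0214% to 0.0491% of the CPM and were left out of the tests.

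Groups were taken from the sample labels. A pseudocount of 0.1 CPM was added, genes with a CPM sum of at least 3 over the 15 libraries were kept, and limma 3.58.1 in R 4.3.3 (1 mean per line, trended empirical Bayes, two-sided, Benjamini-Hochberg over all genes tested) was run on log2 values. Pass means an adjusted p under 0.05. Replicate 3 was tested as an added term. The code was tested on simulated data. Python 3.11.15 was used for sequences and figures.

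The members and gene lists were chosen with earlier results of these data known. Values in every library were printed for members past an absolute log2 fold change of 1, the D-type cyclins, *Mki67*, *Pcna*, *Top2a*, *Ccnb1* and the 3 members with the largest change per line, and list genes were named where they passed with a change over 1. CDK inhibitors were all named. Outside these rules, library values were also printed for *E2f8*, *Mcm5*, *Tyms*, *Cdkn2c* and *Cdkn1a*, and in part for *Mcm3* and *Rb1*. Alternatives were other pseudocounts, filters and scalings, no trend, sample weights, a replicate block, the compared lines alone and leaving out each library. The analyses of LL2 WT replicate 3 and of replicate 3 by line were added after seeing the data.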

Additional observations from a re-analysis of the deposited data

Results flagged for a closer look

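Members that differed between edited lines, in limma over all genes with a Benjamini-Hochberg adjusted p under 0.05, are given as log2 fold changes. Between the 3 *KEAP1* KO clones and *NRF2* KO these were −0.69 for *Ccnd1*, 0.24 for *Ccnd3*, −0.66 for *Ccnb2*, 1.15 for *E2f2*, −0.50 for *E2f7*, −0.98 for *E2f8*, −0.30 for *Foxm1*, 0.80 for *Mybl2*, −0.36 for *Aurkb*, 0.22 for *Tpx2* and −0.56 for *Top2a*. Between *KEAP1* KO #1 and #2 they were 0.72 for *Ccnb2*, 0.43 for *Foxm1* and 0.58 for *Cenpf*. Between *KEAP1* KO #1 and #3 they were −0.51 for *Cdk4*, 0.67 for *Ccnb2*, 0.87 for *Foxm1*, 0.44 for *Bub1b*, 0.44 for *Cenpa*, 0.78 for *Cenpf* and 0.37 for *Top2a*.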

How the results depend on the processing

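Over 125 values of single genes and the alternatives, 2652 pairs in all, 2369 kept their direction and their side of the threshold, 262 no longer passed, 21 newly passed and 0 turned direction. Calls against LL2 WT, among these values, that passed under every alternative run were *Keap1*, *Nfe2l2* and *E2f2* in all 3 clones, *E2f8* and *Ccnb2* in *KEAP1* KO #2 and #3, *Rrm2* in #2, *Top2a* in #3, *E2f6* in #1, and *Cdkn1a*, *Cdkn1b*, *Cdkn2c*, *Tfdp2* and *Pimreg* in #2 and #3. The number of members passing moved more. In *KEAP1* KO #1 against LL2 WT (7) it was 4 without a filter, 4 with median-ratio rescaling, 24 with sample weights, 20 with the replicate block, 20 with replicate 3 as a batch and 2 with the compared lines alone, and the median of the members was 0.10 with sample weights. In *KEAP1* KO #2 (9) it was 30 with sample weights, 19 with the replicate block, 19 with replicate 3 as a batch and 4 with the compared lines alone. In *KEAP1* KO #3 (13) it was 27, 21, 21 and 4 under the same settings. Sample weights, whose estimation stopped before convergence, gave 20 in *NRF2* KO (0), 19 for the clones against *NRF2* KO (11) and 7 between *KEAP1* KO #3 and #2 (0). Between *KEAP1* KO #1 and #2 (3) the number was 0 without a filter, 5 with quantile normalization, 15 with sample weights, 8 with the replicate block, 8 with replicate 3 as a batch and 8 with the compared lines alone. Between *KEAP1* KO #1 and #3 (7) it was 2 without a filter, 2 without a trend, 21 with sample weights, 16 with the replicate block, 18 with replicate 3 as a batch and 15 with the compared lines alone. The causes were not tested.

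Leaving out single libraries gave 2 to 15 members passing (median 0.067 to 0.39) in *KEAP1* KO #1, lowest without *KEAP1* KO #1 replicate 2 and highest without LL2 WT replicate 2. It gave 7 to 14 (−0.080 to 0.32) in *KEAP1* KO #2, 8 to 17 (−0.14 to 0.23) in #3 and 0 to 0 (−0.036 to 0.29) in *NRF2* KO, with the lowest medians without LL2 WT replicate 3. It gave 6 to 13 (−0.089 to 0.035) for the clones against *NRF2* KO, 0 to 9 (0.083 to 0.14) between #1 and #2, 2 to 17 (0.22 to 0.32) between #1 and #3, 0 to 0 (−0.11 to −0.069) between #3 and #2, and 23 to 30 (−0.23 to −0.073) for replicate 3. A line left with 2 libraries shares the spread of the others.

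The replicate numbers were checked for pairing. Libraries of different lines with the same number had a median correlation of their deviations of 0.276 over 30 pairs (22 over 0.1), against −0.192 over 60 pairs with different numbers. Deviations were taken from the mean of the line and cancel within it, so the second value is tied to the first. Of the 10 pairs per number, 2 were over 0.1 for replicate 1 (median 0.057), 10 for replicate 2 (0.274) and 10 for replicate 3 (0.461). Libraries numbered 2 or 3 thus share deviations across lines, which the main tests leave in the spread. The main fit has no block for the replicate number, although only replicate 1 showed little of this. Its counts of members passing therefore ignore this pairing. With the block, whose counts are given above, more members passed in each *KEAP1* KO clone against LL2 WT. The depth of each library was not used here, so low values such as those of *E2f2* have no counting interval.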
